A study of Mus musculus with 40 samples.

Results

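The comparison described here is between pull-down libraries rich and poor in Gm42418, an RNA gene that lies on a copy of the ribosomal RNA repeat. The members were chosen by their own Gm42418 count: a pull-down counted as rich when Gm42418 took over 10% of its total, which 4 of the 20 pull-downs did, and the other 16 counted as poor. The series holds 40 libraries, since each pull-down has a supernatant library with the same sample number. The split was made with a measured value and is not a group of the study, so the Gm42418 values are given as a description, and tests were run on other genes, with Gm42418 taken out of every library total.

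The libraries came from hypothalami of mice with the Aldh1l1 eGFP-L10a transgene, in which the promoter of the astrocyte gene Aldh1l1 drives ribosomal protein L10a fused to green fluorescent protein. Every mouse compared here carried this transgene. The 3 treatment groups were sham-operated mice on chow (sham chow, 7 samples), sham-operated mice on a high-fat diet (sham HFD, 6 samples) and orchiectomised mice, whose testes were removed, on a high-fat diet (ORX HFD, 7 samples, written GDX in the titles), and the diets lasted 4 weeks. Immunoprecipitate libraries are called pull-downs here. The labels do not say whether 1 sample number is 1 mouse or a pool, so a p-value speaks only of the spread among these samples, which may be in part technical.

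In translating ribosome affinity purification, an antibody against the green tag captures ribosomes of the tagged cell type together with the messages they are translating. The supernatant keeps what the beads did not hold, from all cell types, and some of this RNA is carried over in any pull-down. Mitochondria have their own ribosomes, which carry no tag, so mitochondrially encoded messages are not translated by a tagged ribosome. Ribosomal RNA itself has no long poly(A) tail, and in a 3' tag library it can enter where an oligo-dT primer meets a stretch of A bases inside it.

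Gm42418 (ENSMUSG00000098178.1) is annotated in GENCODE M21 as a long intergenic RNA of 1 exon and 1831 bases on chromosome 17, from 39846958 to 39848788 on the plus strand of GRCm38. On the opposite strand it overlaps AY036118, with which it shares 899 stretches of 25 bases, and the ribosomal RNA entry CT010467.1, with which it shares 1220. Neither of these symbols is in the count table used. Its sequence is 17.7% A, against a median of 27.1% over the longest transcripts of all annotated genes, and 60.2% G or C. Its longest run of A is 6 bases, while 27.7% of all genes have a run of at least 7 in their longest transcript. The 50-base stretches around its A runs of 5 or more and around its most A-rich stretch are shown because the libraries were primed with oligo-dT; capitals mark runs of at least 4 A. Whether priming started there was not tested, as the counts hold no read positions. The stretches lie at chr17:39847004-39847053, chr17:39847145-39847194 and chr17:39847525-39847574.
Gm42418 stretch 1: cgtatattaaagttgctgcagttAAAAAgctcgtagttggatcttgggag
Gm42418 stretch 2: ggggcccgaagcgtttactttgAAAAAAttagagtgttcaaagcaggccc
Gm42418 stretch 3: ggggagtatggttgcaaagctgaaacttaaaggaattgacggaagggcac

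Gm42418 took 18.2% of the counts in sham HFD 1, 16.9% in ORX HFD 11, 15.1% in ORX HFD 22 and 13.3% in sham chow 8. Just outside the rule lay sham chow 21 at 8.51%, ORX HFD 6 at 7.00% and ORX HFD 10 at 6.58%. The 16 poor pull-downs ran from 1.07% to 8.51% with a median of 2.48%. Rich pull-downs were 1 of 7 in sham chow, 1 of 6 in sham HFD and 2 of 7 in ORX HFD, so every treatment group held both kinds. The supernatants of the 4 rich sample numbers held 0.61% to 2.52% Gm42418, inside the range of 0.127% to 3.67% in the other 16 supernatants. Gm26917, an annotated RNA gene just upstream on the same strand, lay at 0.822 to 2.74 CPM (counts scaled to 1000000 per library) in the rich and 0.190 to 1.10 CPM in the poor pull-downs. Lars2, a mitochondrial leucyl-tRNA synthetase whose 3' end is known to collect ribosomal RNA reads in mouse libraries, lay at 16.4 to 20.9 CPM against 9.13 to 12.2 CPM. Lars2 ranges did not overlap and Gm26917 ranges did, and they are given as a description, although both stayed in the fit across all genes and were called higher there, since they belong to the same list of repeat RNAs as the rule's gene.

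**Figure D1:**
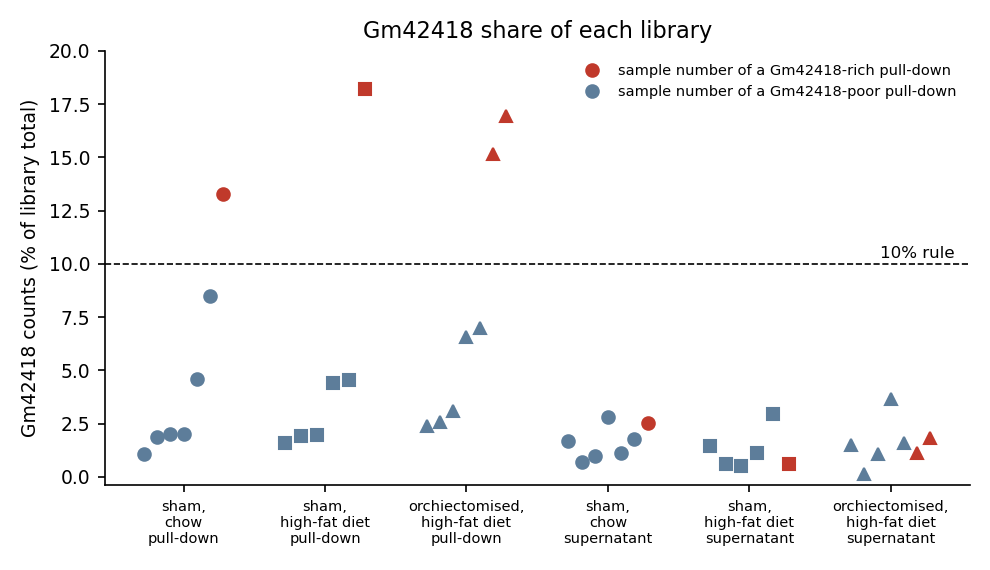
Percent of each library's counts in Gm42418 (vertical axis) for the 20 pull-downs and 20 supernatants by treatment group; each point is 1 library, ordered within a group by its pull-down value, and red marks the 4 sample numbers whose pull-down passed the dashed 10% rule. The rich pull-downs sit between 13.3% and 18.2%, while the supernatants of the same numbers lie between 0.61% and 2.52% among the others.

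The rich pull-downs had smaller totals without Gm42418, at 8248128 ± 1196173 (SD, n = 4) against 12116021 ± 2597746 (SD, n = 16). The ranges of 6546331 to 9291878 and 7817800 to 20380080 overlapped. Taking Gm42418 out lowers the rich totals more by the rule itself, so the p-value of this measure is in part fixed by the split. With Gm42418 kept, totals ran from 7714834 to 10712747 in the rich and 8368393 to 20792175 in the poor pull-downs. That difference was not tested. The rich pull-downs held more genes past a fixed share of the library, with 13946 ± 408.4 genes at 1 CPM or more against 13318 ± 93.55. The ranges of 13702 to 14555 and 13149 to 13505 did not overlap. Depth was not matched here, and the library with the most genes, ORX HFD 22, also had the smallest total. The 50 most abundant genes took 23.4% ± 1.40 of their counts against 26.1% ± 0.973. The 13 mitochondrially encoded messages took 0.846% ± 0.225 against 0.481% ± 0.0739. Each of these 4 differences had an adjusted p of 0.00372 in an exact two-sided permutation test over libraries (raw p 0.000413 to 0.00165), adjusted over 9 measures. Of the 5 supernatant measures none passed, with adjusted p from 0.326 to 0.902.

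Across all genes, edgeR's quasi-likelihood test with treatment as a covariate called 5107 of 14859 genes (34.4%) between rich and poor pull-downs at an adjusted p under 0.05. Of these, 2702 (18.2%) were higher and 2405 (16.2%) lower in the rich pull-downs. At least a 2-fold difference was reached by 899 of the higher and 172 of the lower genes. In 510 genes (3.43%) every rich pull-down lay above every poor one, and in 548 (3.69%) every one lay below. With plain library totals in place of TMM scaling the median log2 fold change of all genes moved to 0.15, and the calls split into 4213 higher and 1245 lower, so directions below are relative to the typical gene. With log2 of the library total as a further covariate, which overlaps with the split, 2887 genes were called, 1432 higher and 1455 lower.

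Many of the higher genes with the smallest p were neuronal. Of 21 tested neuron markers 15 rose, against 18.2% of all genes, with a median log2 fold change of 0.70. The 3 that fell, against 16.2% of all genes, were Syp, Thy1 and Vamp2, which encode synaptic vesicle and surface proteins. In a bulk library, more RNA from a cell type and more of its RNA per cell cannot be told apart. Grin1 (ENSMUSG00000026959.13, chromosome 2, 25291181 to 25319187, minus strand), the obligatory subunit of NMDA glutamate receptors, lay at 28.6 CPM in sham HFD 1, 25.5 in ORX HFD 11, 39.5 in ORX HFD 22 and 37.1 in sham chow 8. Its 16 poor pull-downs lay between 6.41 and 12.4 CPM with a median of 8.38. All 4 rich libraries stood above all 16 poor ones, and the log2 fold change was 1.86 ± 0.14 (SE; edgeR, adjusted p = 4.69e-09). Within treatment groups the log2 difference was 2.04 in sham chow, 1.67 in sham HFD and 1.73 in ORX HFD.

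Other neuronal genes among the higher ones with the smallest p had ranges that did not overlap either. Caly, which encodes an endosomal protein of neurons, lay at 26.5, 19.9, 36.4 and 22.4 CPM in the rich libraries (sham HFD 1, ORX HFD 11, ORX HFD 22 and sham chow 8, the order used from here on) against 3.46 to 8.499 CPM. Its log2 fold change of 2.14 ± 0.17 (edgeR adjusted p = 7.39e-09) was the largest of the neuronal genes named here. Resp18, a protein of neuroendocrine secretory granules, lay at 58.7, 45.9, 80.4 and 50.4 CPM against 13.6 to 25.9, and Pcsk2, a convertase that cuts prohormones, at 32.9, 24.9, 50.3 and 26.6 against 6.95 to 14.0. Dnm1, the dynamin of synaptic vesicle retrieval, Camk2a, a postsynaptic kinase, Calb1, a calcium buffer, Rit2, a small GTPase, Atl1, an endoplasmic reticulum GTPase, and Atp1b1, a sodium pump subunit, rose by 0.98 to 1.51 on the log2 scale, each without overlap. Among the markers, Gad2, an enzyme of GABA synthesis, lay at 94.0, 63.1, 98.6 and 71.5 CPM against 26.6 to 45.8. Eno2, Syt1 and Tubb3 rose by 1.08, 0.93 and 1.13 on the log2 scale, also without overlap. The rise was smaller for Stmn2, a neuronal tubulin-binding protein, at 0.50 ± 0.12 (edgeR adjusted p = 0.00295), with 47.5 to 66.9 CPM against 30.6 to 53.2 CPM overlapping. Stmn2 did not pass with the rule at 5% (log2 fold change 0.29, edgeR adjusted p = 0.118).

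Hypothalamic neuropeptide messages rose in 19 of 21 tested members, against 18.2% of all genes, and none fell. Their median log2 fold change was 1.45. Cartpt (chromosome 13, 99898489 to 99901091), the precursor of the CART peptides, lay at 72.9, 69.4, 118.9 and 48.0 CPM, above all 16 poor pull-downs at 10.7 to 36.7 CPM (median 18.4). It rose by 1.75 ± 0.23 on the log2 scale (edgeR adjusted p = 2.42e-05). Avp, the vasopressin precursor, lay at 96.9, 123.2, 171.7 and 171.5 CPM against 26.2 to 86.4 CPM, and in the rich libraries sham HFD 1 was the lowest. Oxt, the oxytocin precursor, lay at 80.6 to 152.7 CPM against 28.2 to 81.4 CPM, where only 1 rich library, ORX HFD 11, lay within the poor range. Nts, the neurotensin precursor, rose by 1.45 without overlap.

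The peptides of the arcuate feeding circuit were less even. Pomc, the precursor of melanocortins, lay at 78.9, 56.3, 102.5 and 25.7 CPM against 11.4 to 38.02 CPM, so sham chow 8 stood within the poor range. Its log2 fold change was 1.31 ± 0.20 (edgeR adjusted p = 6.62e-05). Npy, neuropeptide Y, rose by 0.62 ± 0.18 (edgeR adjusted p = 0.0104), with 5.11 to 13.5 CPM against 2.80 to 7.27 CPM. Agrp, an antagonist of melanocortin receptors, was scarce at 1.204, 0, 1.57 and 6.68 CPM against 0.203 to 1.74 CPM, with a log2 fold change of 1.72 ± 0.52 (edgeR adjusted p = 0.013). Both calls needed sham chow 8: without it the log2 fold change was 0.31 for Npy (adjusted p = 0.258) and 0.36 for Agrp (adjusted p = 0.688). Pomc (log2 fold change 0.71, edgeR adjusted p = 0.0917), Npy (0.35, 0.170) and Agrp (1.27, 0.0870) did not pass with the rule at 5%.

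Pituitary markers were low, and 3 of 4 tested members rose (Gh, Cga and Tshb), against 18.2% of all genes. Cga, the common glycoprotein hormone subunit, lay at 17.1, 11.1, 26.0 and 13.0 CPM against 2.50 to 12.7 CPM, and rose by 1.55 on the log2 scale. Gh, growth hormone, lay at 27.5, 2.26, 0 and 6.06 CPM, while poor pull-downs ranged from 0 to 12.5 CPM with a median of 0.0846. ORX HFD 22 held no Gh, while it had the highest Grin1, Caly and Resp18. The Gh call was lost without sham HFD 1 (edgeR adjusted p = 0.0988) or without sham chow 8 (0.0769). The summed pituitary level lay at 22.1 to 69.9 CPM in the rich and 5.27 to 24.4 CPM in the poor pull-downs.

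Other glia gave a mixed set. Of 15 oligodendrocyte markers 10 rose and 3 fell, with a median of 0.67. Mag, a myelin adhesion protein, lay at 40.8, 26.5, 43.1 and 31.6 CPM against 7.36 to 23.8 CPM, while Cnp, another myelin enzyme, went the other way at 144.3, 141.7, 143.9 and 190.6 CPM against 192.1 to 269.8 CPM. Cnp fell by 0.49 ± 0.08 on the log2 scale (edgeR adjusted p = 0.000103), and the ranges of the pair did not overlap. The Cnp call was lost with the rule at 5% (log2 fold change -0.24, edgeR adjusted p = 0.0856). Mbp, myelin basic protein, rose by 0.67 ± 0.15 (adjusted p = 0.00225) with overlapping ranges. Gjc3 and Qdpr were the other members that fell. Among 10 markers of oligodendrocyte precursors 3 rose and C1ql1 fell. With 18.2% of all genes higher and 16.2% lower, counts this small do not set the list apart. Cspg4, the NG2 proteoglycan that pericytes carry too, lay at 93.5, 110.7, 164.9 and 74.8 CPM, above the poor pull-downs at 15.3 to 66.3 CPM. It lay at only 3.37 to 9.13 CPM in the supernatants. Microglial markers rose in 8 of 17 and fell in none, with a median of 0.82. Ctss, a lysosomal protease of microglia, lay at 58.8, 44.9, 94.6 and 56.8 CPM against 17.3 to 45.3 CPM, and C1qa, a complement subunit, rose by 1.19 on the log2 scale.

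Endothelial messages rose together: 13 of 14 tested markers were called higher, against 18.2% of all genes, and the median log2 fold change was 1.41. Cdh5 (ENSMUSG00000031871.9, chromosome 8, 104101625 to 104144511), the cadherin of endothelial junctions, lay at 33.2, 34.9, 37.5 and 23.3 CPM against 6.77 to 29.5 CPM with a median of 9.79. The 1 poor library above the lowest rich one was ORX HFD 6, at 29.5 CPM. The next highest poor pull-down, ORX HFD 2, lay at 14.1 CPM. Cdh5 rose by 1.41 ± 0.17 (edgeR adjusted p = 4.03e-06). Slco1a4, an organic anion transporter of the blood-brain barrier, lay at 131.3 to 280.2 CPM in the rich against 24.7 to 149.3 CPM in the poor pull-downs, and the 149.3 was again ORX HFD 6. Itm2a and Tek, the angiopoietin receptor, rose by 1.63 and 1.56.

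Mural cells, which wrap these vessels, rose in 7 of 10 markers, against 18.2% of all genes, with a median of 1.11. Vtn (chromosome 11, 78499091 to 78502324), vitronectin, lay at 160.2, 117.3, 171.3 and 117.9 CPM, and every poor pull-down lay between 54.1 and 81.7 CPM. It rose by 1.07 ± 0.10 on the log2 scale (edgeR adjusted p = 5.58e-08). Rgs5, a signalling regulator of pericytes, lay at 195.6, 61.0, 156.2 and 79.6 CPM against 18.3 to 99.0 CPM, which overlapped. Abcc9, a potassium channel regulator, and Acta2, smooth muscle actin, rose by 1.47 each.

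Vascular and immune genes also stood among the lists of cell state. Of 16 immediate early genes 4 rose (Fosl2, Klf2, Klf4 and Junb), against 18.2% of all genes, and 2 without sham HFD 1. Klf4 did not pass without sham HFD 1 (edgeR adjusted p = 0.0567), nor did Junb without ORX HFD 11 (0.0563), ORX HFD 22 (0.0782) or sham HFD 1 (0.319). Klf2, a flow-induced endothelial factor, lay at 31.9 to 122.3 CPM against 10.4 to 94.2 CPM. Of 20 astrocyte reactivity genes 9 rose and Serpina3n fell. Hspb1, a small heat shock protein that vessels also express, lay at 126.6, 93.2, 134.9 and 63.9 CPM against 12.3 to 97.6 CPM and rose by 1.80 ± 0.30 (edgeR adjusted p = 0.000271). Cp, ceruloplasmin, rose by 0.70. Gfap, the filament protein used to mark reactive astrocytes, lay at 442.3 to 626.2 CPM against 414.9 to 776.2 CPM, with a log2 fold change of -0.03 ± 0.13 (adjusted p = 0.884).

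Some cell types gave few or no calls, beside 18.2% of all genes higher and 16.2% lower. Fibroblast markers rose in 3 of 8 with a median of -0.13, but in 1 of 8 without ORX HFD 22 or without sham HFD 1, and tanycyte and ependymal markers in 0 of 12 with a median of -0.06; both medians turned to 0.02 and 0.08 with plain library totals. The median of the choroid plexus markers, of which 1 of 4 fell (Clic6, a chloride channel protein; edgeR adjusted p = 0.0845 without ORX HFD 22 and 0.0675 without sham HFD 1), was -0.08 and turned to 0.06 likewise. Red blood cell messages gave no call among 5, with a median of 0.49; their summed level lay at 837.7 to 2209 CPM in the rich and 243.8 to 7026 CPM in the poor pull-downs.

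Mitochondrially encoded messages rose in 11 of 13, none fell, and the median log2 fold change was 0.59. mt-Co3, a subunit of cytochrome oxidase, lay at 1385, 1092, 2109 and 1301 CPM against 541.4 to 908.8 CPM, without overlap, and rose by 1.10 ± 0.13 (edgeR adjusted p = 2.03e-06). mt-Co1 rose by 0.43 ± 0.09 (adjusted p = 0.000597), from a poor range of 653.0 to 947.5 CPM that reached into the rich range of 831.4 to 1207 CPM. Of 9 long noncoding RNAs held in nuclei 3 rose (Snhg14, Peg13 and Rian), against 18.2% of all genes. Rian did not pass without ORX HFD 22 (edgeR adjusted p = 0.314) or sham HFD 1 (0.183). Snhg11 did not pass, at 71.2, 47.0, 264.9 and 65.7 CPM against 20.9 to 113.0 CPM (log2 fold change 0.91 ± 0.46, edgeR adjusted p = 0.142). Among 32 small noncoding and histone RNAs, which lack or have little poly(A), 6 rose and 3 fell, a share near the 18.2% of all genes that were higher, and 2 rose without sham HFD 1.

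Several of these counts moved by over 1.5 times in other fits. With log2 depth as a covariate 11 neuropeptide, 4 oligodendrocyte, 4 microglial, 4 mural, 1 fibroblast and 5 reactivity genes, 1 immediate early gene and 3 small noncoding RNAs rose and 1 neuron marker fell, while 13 neuron, 12 endothelial and 8 mitochondrially encoded messages rose. Without sham HFD 1, 5 oligodendrocyte markers rose and no precursor marker fell, and 13 endothelial and 16 neuropeptide messages rose. Without ORX HFD 22, 5 reactivity genes rose and 1 neuron marker fell. Without sham chow 8, 1 oligodendrocyte marker fell. With the rule at 5%, 5 precursor markers and 3 reactivity genes rose, and no oligodendrocyte or precursor marker fell. Fibroblast markers then rose in 1 and fell in 4 of 8, and 5 small noncoding and histone RNAs fell. At that setting 11 neuron, 15 neuropeptide and 13 endothelial messages rose.

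**Figure D2:**
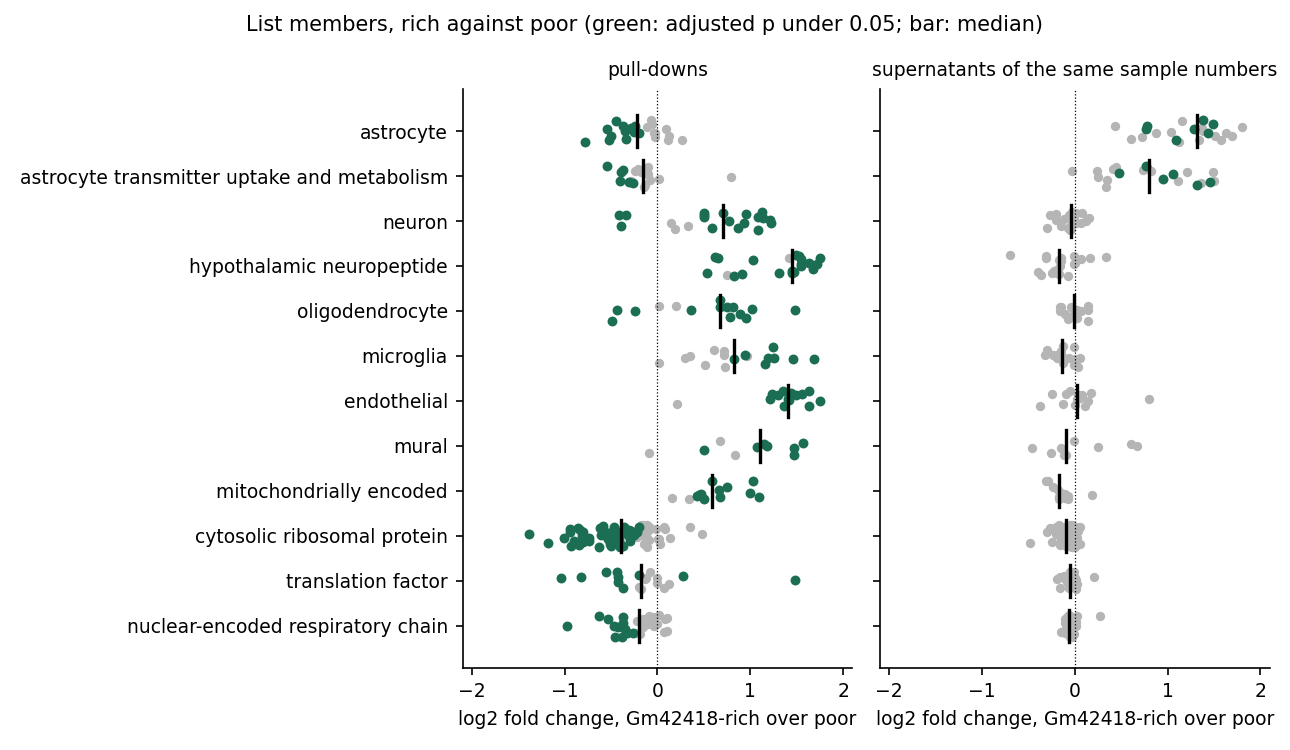
Log2 fold change of each tested list member, rich over poor, in the pull-downs (left) and in the supernatants of the same sample numbers (right); each point is 1 gene, green marks an adjusted p under 0.05 and the bar is the list's median. Of the 12 lists shown, the pull-down medians run from 1.45 for neuropeptides and 1.41 for endothelial markers to -0.39 for ribosomal protein genes, signs that held with plain library totals.

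Messages for the translation machinery moved the opposite way. Of 79 cytosolic ribosomal protein genes 55 fell, against 16.2% of all genes, and none rose, with a median log2 fold change of -0.39. In 29 every rich pull-down lay below every poor one, against 3.69% of all genes. With plain library totals 41 fell and 5 rose. Rps9 (ENSMUSG00000006333.14, chromosome 7, 3703993 to 3706897, plus strand), a small-subunit protein, lay at 205.7, 201.9, 184.7 and 280.4 CPM against 317.4 to 533.4 CPM. It fell by 1.01 ± 0.11 on the log2 scale (edgeR adjusted p = 7.18e-07). Rps6, the ribosomal target of S6 kinase, fell by 0.86 with 159.1 to 208.6 CPM against 249.7 to 403.6 CPM. Rps12 and Rps27a fell by 0.84 and 0.94, also without overlap. Rpl10a, the gene of the tagged protein, is named outside the rule after its value was seen: its log2 fold change was -0.41 ± 0.12 (adjusted p = 0.00872). Ribosomal protein genes have many processed pseudogenes, so their counts depend on how the quantification shared reads.

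Ribosomal protein messages are known for starting with a run of C and T bases, the 5' terminal oligopyrimidine tract, through which growth signals control their translation. In RefSeq's 300-base promoter windows (GRCm38.p6), the longest run of C or T touching the annotated start or the 2 bases on either side, read on the gene's strand, reached 7 bases in 43.2% of the 44 fallen ribosomal protein genes with a window. The share was 36.2% of 58 over all ribosomal protein genes tested and 10.1% of 10895 over all genes tested. Without the ribosomal protein genes, the other fallen genes had it in 9.11% of 1811. The 30 bases around the annotated start (15 before, then 15 from it on) are shown for Rps9, Rps6 and Rps12 alone among the named members, with the run in capitals. They lie at chr7:3704026-3704055 on the plus strand for Rps9, and on the minus strand at chr4:86857353-86857382 for Rps6 and chr10:23787195-23787224 for Rps12, whose run spans only 2 bases in this window.
Rps9: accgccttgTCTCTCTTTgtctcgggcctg
Rps6: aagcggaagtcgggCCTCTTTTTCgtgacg
Rps12: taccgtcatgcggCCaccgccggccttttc

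Related genes fell to a lesser degree. Of 19 translation factors 8 fell, against 16.2% of all genes, and 2 rose, against 18.2%. Only 1 rose with log2 depth as a covariate, without ORX HFD 22 or without sham chow 8. The median log2 fold change of the 19 was -0.17. With plain library totals 6 of the 19 fell and 4 rose, and the median was -0.03. Eef1d, a subunit of elongation factor 1, lay at 56.4, 55.1, 60.3 and 72.6 CPM against 89.8 to 168.3 CPM and fell by 1.04. Eef1a2, the form of elongation factor 1A found in neurons and muscle, was the reverse at 48.5, 23.8, 46.8 and 35.5 CPM against 8.81 to 20.0 CPM, and rose by 1.49. Npm1, a nucleolar chaperone, fell by 0.83. Ribosome biogenesis genes fell in 7 of 22, against 16.2% of all genes, and 1 rose. The 1 that rose was Ubtf, a factor of ribosomal RNA transcription, by 0.31 ± 0.10 (edgeR adjusted p = 0.0159, and 0.136 without sham HFD 1). With plain library totals 3 biogenesis genes fell and 3 rose. Without sham HFD 1, 3 of the 22 fell, without ORX HFD 22, 4 fell, and with log2 depth as a covariate 2 fell. Without sham chow 8 or with the depth covariate none rose. Nuclear-encoded respiratory chain subunits fell in 13 of 30, against 16.2% of all genes, and none rose. Ndufa2 lay at 175.8, 213.7, 171.8 and 209.1 CPM against 237.6 to 301.9 CPM. With plain library totals 8 of the 30 fell and 4 rose. The median log2 fold change was -0.20 for the nuclear-encoded respiratory subunits and 0.59 for the mitochondrially encoded messages.

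The lower genes with the smallest p were spread over other functions. Il11ra1, an interleukin 11 receptor subunit, lay at 71.5, 61.6, 48.9 and 91.7 CPM against 108.5 to 221.2 CPM and fell by 1.20 ± 0.13 (edgeR adjusted p = 4.71e-07). Rbpms2, an RNA-binding protein, fell by 1.37, from 20.8 to 35.6 CPM in the poor to 10.1 to 13.0 CPM in the rich libraries. Prdx6, an antioxidant enzyme, lay at 791.5, 846.2, 649.1 and 884.5 CPM against 1124 to 1416 CPM. Glo1, which detoxifies methylglyoxal, Mrpl34, a mitochondrial ribosomal protein, Dhrs4, a carbonyl reductase, Cbx1, a heterochromatin protein, Gtf3c6, a subunit of transcription factor IIIC, Otud6b, a deubiquitinase, and Ogdhl, a mitochondrial dehydrogenase, fell by 0.61 to 0.94, each without overlap. Mt3 (chromosome 8, 94152607 to 94154146), the brain metallothionein, lay at 20.8, 28.2, 23.6 and 27.2 CPM against 34.9 to 232.2 CPM with a median of 113. It fell by 2.27 ± 0.37 (adjusted p = 0.000238), and the lowest poor library was sham chow 21, the one nearest to the rule's threshold.

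Astrocyte markers fell in 12 of 22, against 16.2% of all genes, and none rose, with a median of -0.22. In 4 of them every rich pull-down lay below every poor one, against 3.69% of all genes. With plain library totals 6 fell and 2 rose and the median was -0.07. Without sham HFD 1, 7 astrocyte markers fell, and with log2 depth as a covariate 6 fell and 1 rose. With the rule at 5%, 6 fell and 2 rose. Ndrg2 (ENSMUSG00000004558.15, chromosome 14, 51905271 to 51914158), an abundant astrocyte protein, lay at 5298, 5134, 4258 and 6549 CPM against 5964 to 11930 CPM. It fell by 0.78 ± 0.10 (edgeR adjusted p = 5.54e-06), and ORX HFD 10, a poor library at 6.58% Gm42418, was the only poor one below the highest rich one. Ntsr2, the astrocytic neurotensin receptor, Slc1a3, a glutamate transporter, and Atp1b2, a sodium pump subunit, fell by 0.50, 0.52 and 0.54, each without overlap. Slc1a2, the main glutamate transporter, lay at 19760, 23170, 15030 and 19710 CPM against 14570 to 22980 CPM, with a log2 fold change of 0.09 ± 0.11 (adjusted p = 0.516). For Aldh1l1, whose promoter drives the tag, the values were 155.8, 181.0, 147.9 and 196.9 CPM against 125.3 to 222.4 CPM (log2 fold change 0.12 ± 0.11, adjusted p = 0.431). Aldh1l1 was called higher with the rule at 5% (log2 fold change 0.25, edgeR adjusted p = 0.043). Of 20 genes of astrocyte transmitter uptake and metabolism 6 fell and none rose, against 16.2% of all genes lower and 18.2% higher. Among the 6 was Slc6a11, a GABA transporter, at 2481 to 2745 CPM against 2747 to 3793 CPM. With plain library totals 2 fell and 1 rose, and 3 fell without sham HFD 1 or with the depth covariate. The rule at 5% gave 2 that fell. Summed over the 22 astrocyte markers the level was 74540 to 94590 CPM in the rich and 86120 to 105100 CPM in the poor pull-downs.

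**Figure D3:**
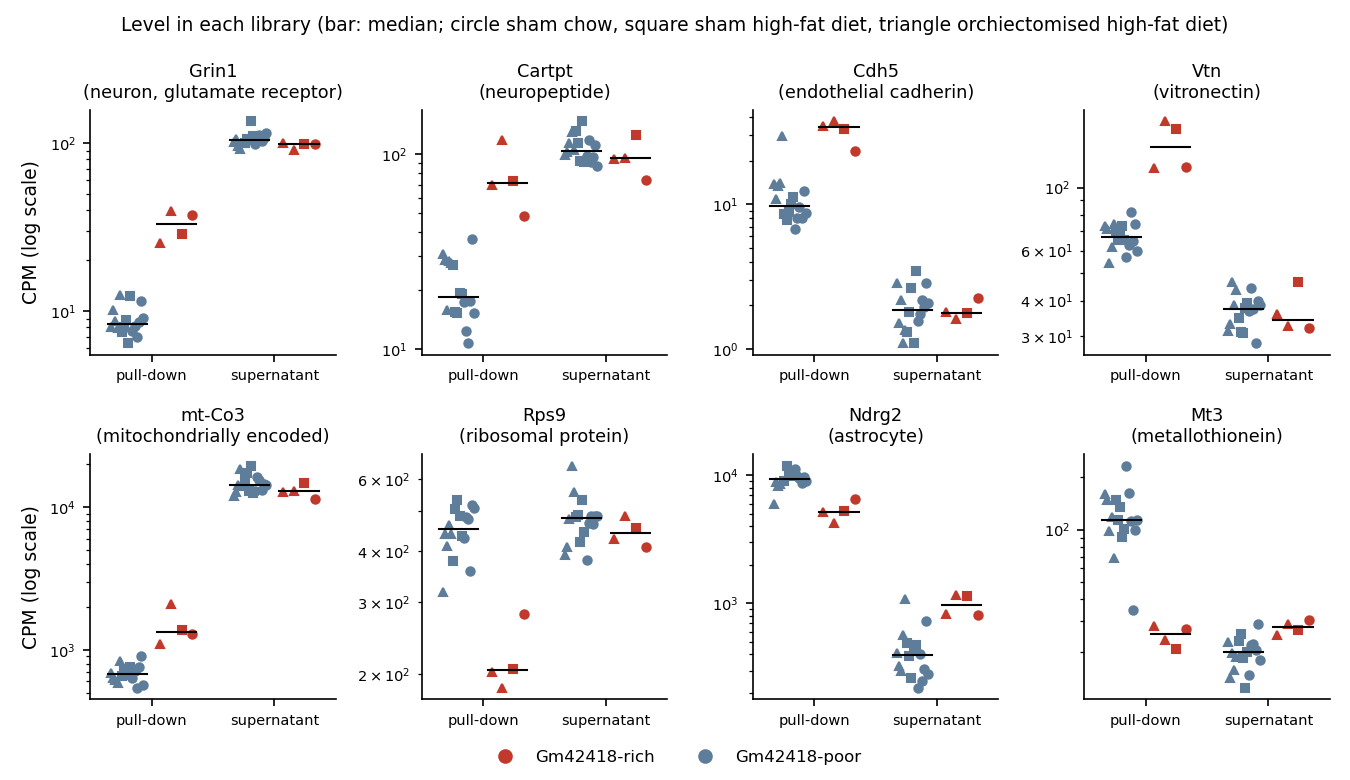
CPM on a log scale for 8 named genes in each pull-down and supernatant; each point is 1 library, red for the 4 Gm42418-rich sample numbers and blue for the other 16, marker shape gives the treatment group and the bar is the median. In the pull-downs Grin1, Cartpt, Vtn and mt-Co3 have red points above all blue ones and Rps9 and Mt3 below them, while Cdh5 and Ndrg2 each have 1 blue point among the red.

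The summed level of each list in a pull-down was taken as a percent of that in the supernatant with the same sample number. The labels do not say that both came from 1 lysate, and the deviations of same-numbered libraries correlated above 0.1 in 5 of 20 pairs. For the rich numbers these correlations were -0.08 (sham HFD 1), 0.017 (ORX HFD 11), -0.034 (ORX HFD 22) and -0.021 (sham chow 8). Each was below the highest with another supernatant of the same treatment. The percent compares shares of 2 libraries and not amounts of RNA, and summed levels use plain library totals. Neuropeptide messages stood at 33.7%, 30.2%, 48.0% and 37.1% of the supernatant in the rich pull-downs and at 8.23% to 17.7% (median 10.4%) in the poor ones, with no overlap. Mitochondrially encoded messages stood at 4.02% to 7.22% against 1.77% to 3.89%, also without overlap. Neuron markers stood at 16.1% to 23.4% against a median of 12.1% and a highest value of 16.3%, and microglial ones at 29.9% to 67.1% against 15.5% to 32.1%. The oligodendrocyte list overlapped, at 11.9% to 18.0% against 8.43% to 14.9%.

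Vascular markers were above the supernatant level in every pull-down, rich or poor. The endothelial list stood at 618.8%, 1021%, 1472% and 669.0% in the rich libraries and at 173.4% to 851.4% in the poor ones, where ORX HFD 6 held the highest value and the next was 396.6% in sham chow 23. Mural markers stood at 344.3% to 673.0% against 144.3% to 278.6%, with no overlap. Pituitary messages crossed from a median of 37.3% in the poor to 159.6% in the rich pull-downs. For ribosomal protein messages the ranges overlapped, at 47.6% to 65.2% against 52.7% to 95.8%. The astrocyte list went down from a median of 2333% in the poor to 1021% in the rich pull-downs, whose 4 values lay between 750.2% and 1259%. Most of this difference lay in the supernatants, where the median summed level was 8881 CPM for the rich and 4114 CPM for the poor numbers, against 90960 and 95610 CPM in the pull-downs. Among the poor libraries, ORX HFD 6 at 1048% lay within the range of the rich percents, and only sham chow 23 at 1344% came near it otherwise. The poor pull-down with the highest Gm42418 share, sham chow 21, had 10.28% for neuropeptides and 3299% for astrocyte markers, against poor medians of 10.4% and 2333%.

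**Figure D4:**
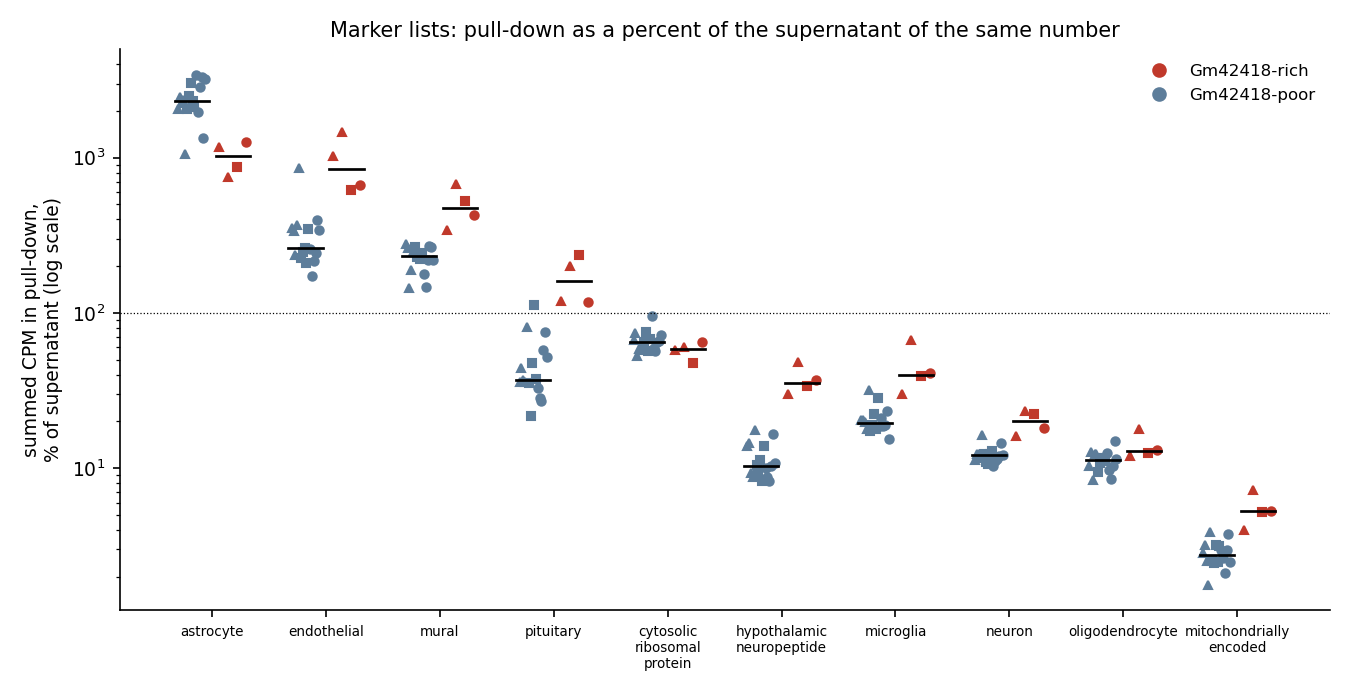
Summed CPM of each marker list in a pull-down as a percent of the supernatant of the same sample number, on a log scale; each point is 1 sample, red for Gm42418-rich and blue for Gm42418-poor pull-downs, marker shape gives the treatment group as in the plot of single genes, the bar is the median and the dotted line marks 100%. Red points lie above all blue ones for the mural, pituitary, neuropeptide and mitochondrially encoded lists, and at the lower end for astrocytes.

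All genes tested were also sorted by their level in the pull-downs against the supernatants. When the 14859 genes were put into 4 bins of equal size by the log2 ratio of their mean in the poor pull-downs to their mean in the supernatants, the bin highest in the supernatants had 36.7% of its genes called higher in the rich pull-downs and 6.24% lower. In the bin highest in the pull-downs, 10.1% were higher and 23.0% lower. The bins between had 14.0% and 11.8% higher and 17.3% and 18.2% lower. The poor pull-downs enter both this ratio and the fold change, so they are not independent. Of the genes called higher, 66.5% had a lower mean in the poor pull-downs than in the supernatants, against 31.4% of those called lower and 45.6% of all tested. Not all higher genes were of this kind, since 377 of them lay in the bin highest in the pull-downs, where the endothelial marker Cdh5 also stands by its levels of 9.79 CPM in the poor pull-downs and 1.87 CPM in their supernatants.

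**Figure D5:**
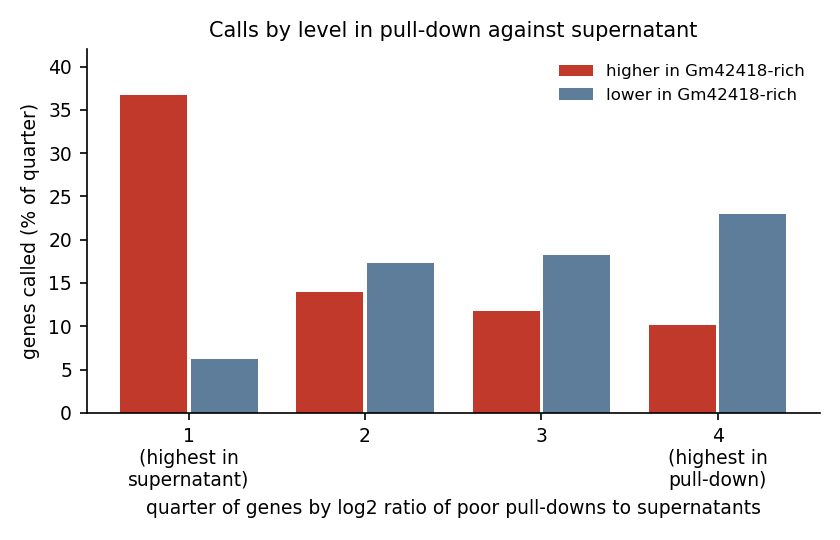
Percent of genes called higher (red) or lower (blue) in the Gm42418-rich pull-downs within each of 4 equal bins of the 14859 genes tested, ordered from genes highest in the supernatants to those highest in the pull-downs. The share called higher goes from 36.7% to 10.1% and the share called lower from 6.24% to 23.0%.

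Transcript length differed between the classes as well. The longest annotated transcript had a median of 3892 bases among genes called higher, 2985 among genes called lower and 3366 among all tested, with values for 98.1% of the genes. In the bin of the shortest transcripts, of 4, 463 genes were higher and 780 lower, and in that of the longest 882 were higher and 493 lower. Median G and C content was 50.4% for higher and 49.1% for lower genes. Genes called lower were also more abundant in the poor pull-downs, with a median of 52.6 CPM against 8.30 CPM for genes called higher.

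The supernatants were not used by the rule, and they differed much less. With the supernatants split by the same sample numbers, edgeR called 110 of 15282 genes (0.72%), all higher in the supernatants of the rich pull-downs; 928 had an unadjusted p under 0.05, and DESeq2 called 205 higher and 5 lower. Among the genes that rose were 7 of 22 astrocyte markers (Aqp4, Slc1a2, Gja1, Sox9, Atp1b2, Clu and S1pr1) and 6 of 20 genes of astrocyte transmitter uptake and metabolism, with Atp1b2 in both lists. All 22 astrocyte markers had a log2 fold change above 0, with a median of 1.31. The only other list with a call was that of tanycytes and ependyma, with 1 of 13, Dio2. This count rested on few libraries: it was 51 without ORX HFD 11 and 0 without any 1 of ORX HFD 22, sham HFD 1 or sham chow 8.

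Slc1a2 (ENSMUSG00000005089.15, chromosome 2, 102658659 to 102790784) lay at 778.6, 969.6, 961.7 and 975.3 CPM in the supernatants of the rich pull-downs, above the other 16 at 176.7 to 723.9 CPM with a median of 323.9. Its log2 fold change was 1.28 ± 0.24 (edgeR adjusted p = 0.0252), and the highest of the 16, ORX HFD 6, also had the poor pull-down highest in endothelial messages. Cpt1a, the carnitine transferase of fatty acid oxidation, lay at 8.90, 8.37, 10.4 and 10.15 CPM against 2.98 to 6.95 CPM. Scd2, a fatty acid desaturase, lay at 726.6 to 827.9 CPM against 472.0 to 672.7 CPM, Nadk2, a mitochondrial NAD kinase, at 27.7 to 32.7 CPM against 12.6 to 24.6 CPM, and Parp3, a DNA repair enzyme, at 3.63 to 6.09 CPM against 1.51 to 3.30 CPM. None of these 4 overlapped, and each had an edgeR adjusted p of 0.0192. Serpine2, a protease inhibitor, had the same adjusted p with overlapping ranges, and it was called lower in the pull-downs, by 0.53 on the log2 scale. Aldh1l1 lay at 15.7, 11.1, 11.7 and 9.40 CPM against 1.68 to 9.95 CPM in the supernatants and did not pass (log2 fold change 1.57, adjusted p = 0.0605).

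Neuronal, neuropeptide, vascular, microglial, mitochondrial and ribosomal protein lists had no call in the supernatants. Only 0.72% of all genes were called there, so no call in lists this short is near that share. Grin1 had a median of 99.0 CPM in the supernatants of the rich pull-downs, with the lowest at 90.7, and lay between 91.9 and 135.1 CPM in the others, and Cartpt at 73.5 to 125.8 CPM against 87.1 to 148.3 CPM. The ranges overlapped for both, with edgeR adjusted p of 0.994 each.

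A test of the difference itself, the rich minus poor change in pull-downs less that in supernatants over all 40 libraries, called 1396 of 16311 genes (8.56%) higher and 1518 (9.31%) lower. Without ORX HFD 22 both directions together gave 1685 genes and without sham HFD 1 they gave 1646, against 2914 with all samples. All 22 astrocyte markers were lower by this test, with a median of -1.51, as were 15 of 20 genes of astrocyte transmitter uptake and metabolism. Neuropeptides were higher in 18 of 22, endothelial markers in 12 of 14, neuron markers in 11 of 22, and ribosomal protein genes lower in 33 of 79. Grin1 had a log2 difference of 1.91 (edgeR adjusted p = 1.51e-09), and Syt4, a synaptotagmin of neurons, one of 1.61. At the other end stood Mt3 at -2.83 and Tst, the mitochondrial thiosulfate sulfurtransferase, at -2.47. Tst lay at 9.08 to 12.5 CPM against 16.1 to 33.7 CPM in the pull-downs and at 2.16 to 3.63 CPM against 0.469 to 2.24 CPM in the supernatants, and it was called in opposite directions in the 2 fractions (supernatant log2 fold change 1.42, edgeR adjusted p = 0.0359). The pull-down and interaction tests share the same pull-down libraries and are not independent.

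Within the 16 poor pull-downs, where the rule makes no difference, a slope on log2 of the Gm42418 percent called 160 of 14431 genes (1.11%) upward and 296 (2.05%) downward, together 3.16%. Ribosomal protein genes made up 26 of the downward calls, out of 79, with a median slope of -0.08 per doubling. Rpl13a fell by 0.29 and Rpl5 by 0.24 per doubling of the Gm42418 percent, each with an edgeR adjusted p of 0.00172. Mtdh, Dab1 and Stard7 fell by 0.25, 0.31 and 0.27. Pdia4, a chaperone of the endoplasmic reticulum, rose by 0.42 per doubling, and Eif5a, a translation factor, Lpcat1, a lipid acyltransferase, Atp6v0d1, a proton pump subunit, and Ckb, the brain creatine kinase, rose by 0.23 to 0.31. Neuron, neuropeptide, microglial, endothelial and mural lists had no member called, with medians of 0.07, 0.17, 0.03, 0.23 and 0.19. As 1.11% of all genes were called upward and 2.05% downward, no call in lists this short is near those shares. Without sham chow 21, the poor library with the highest Gm42418 percent, 13 genes were called in place of 456. The count was also below 456 by over 1.5 times without sham HFD 9 (137), ORX HFD 14 (214), sham HFD 18 (219), sham HFD 13 (255), sham HFD 20 (269) or sham HFD 16 (275), and above it without sham chow 12 (767), sham chow 23 (795) or ORX HFD 10 (902).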

How the data were processed

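Per the labels' protocols, messages were captured with oligo-dT beads before QuantSeq 3' FWD library preparation, which reads tags near the 3' end. Trim Galore 0.6.4, Salmon 1.9.0 and GRCm38 are named in the submitters' processing notes; no label or header gives the annotation or strand setting. The authors deposited estimated counts for 26792 symbols, with fractions in 12.7% of non-zero cells. A second deposited table, named TPM, holds a signal that sums to 847343 to 1025286 per library; for 25089 of 26783 shared symbols it equals the counts times 1 factor per library, within 0.01 counts. It served 1 alternative.

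Gm42418 was taken out, counts were rounded, and edgeR 4.0.16 (R 4.3.3; TMM, filterByExpr with minimum count 10, robust quasi-likelihood fit) tested rich against poor with treatment as a covariate, adjusted by Benjamini-Hochberg over all genes at 0.05. Standard errors (SE) came from the F statistic. limma 3.58.1 and DESeq2 1.42.0 were alternatives. CPM of single genes are TMM-scaled within pull-downs and within supernatants; summed list levels use plain totals. Library measures had an exact permutation test over 4845 assignments; SD and n are over libraries. Pull-down totals with Gm42418 ran from 7714834 to 20792175 counts. On simulated data with 200 of 14859 genes changed 2-fold, the pull-down test called 70% of them, and 3.45% of its calls were unchanged genes. The pull-downs themselves gave 5107 calls, and either rate with so many genes differing, or with smaller differences, was not tested.

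The rule named, among called genes with at least 5 CPM, the 12 with the smallest p per direction, up to 4 per list, and 5 per direction for the other fits, plus 9 fixed genes; some of these are not reported here. The split and the lists were chosen with earlier results of these data known. Positions are those of GENCODE M21, in which 94.4% of symbols were found.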

Additional observations from a re-analysis of the deposited data

Results flagged for a closer look

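Within the 4 Gm42418-rich pull-downs, 1 library stood far from the other 3 for several named genes, by a gap test that flags about 1 in 20 groups by chance; 164 groups of values were tested and 17 were picked out. ORX HFD 22 was the library in most cases. It was highest for the myelin gene Cldn11 (35.65 CPM), the microglial gene Tyrobp (13.63 CPM), the collagen gene Col1a1 (20.05 CPM), the matrix gene Ogn (30.02 CPM), the choroid plexus gene Ttr (42.86 CPM), the nuclear RNAs Snhg14 (59.9 CPM), Peg13 (45.48 CPM) and Snhg11 (264.9 CPM), the immediate early gene Fosl2 (13.24 CPM) and the cytokine receptor Osmr (15.6 CPM), and lowest for Cpt1a (87.69 CPM). It also held the most genes at 1 CPM or more, 14555, and the smallest total of the 20 pull-downs. sham chow 8 stood apart for Cnp (190.6 CPM) and Ogdhl (50.25 CPM), nearer to the poor pull-downs than the other rich ones, and its supernatant for Parp3 (6.09 CPM). sham HFD 1 stood apart for Rpl13a (300.8 CPM). Its Gm42418 share of 18.22% was also flagged among the sham HFD pull-downs. The rule picked this library by that same value, so the flag is only a description.

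The change between rich and poor samples differed between pull-down and supernatant in the 10 genes named for that test (edgeR, all with an adjusted p under 0.05). These 10 were picked for the smallest p of this same test, so their passing follows from the choice. The log2 fold change was more positive in the pull-downs than in the supernatants for Grin1 (log2 difference 1.911), Caly (2.247), Resp18 (1.827), Calb1 (1.45) and Syt4 (1.609). It was more negative in the pull-downs for Il11ra1 (-1.587), Rbpms2 (-1.928), Tst (-2.469), Mt3 (-2.832) and Plce1 (-1.396), a phospholipase.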

How the results depend on the processing

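Calls between rich and poor pull-downs numbered 3562 to 5085 without 1 rich library and 2887 with log2 depth as a covariate, an alternative chosen after seeing the data, and stayed within 1.5 times of 5107 under every other setting. In the supernatants the 110 calls became 210 with DESeq2, 67 without a low-count filter and 0 to 51 without 1 sample number. The interaction gave 1646 to 2764 calls without 1 sample number; with the sample number as a replicate block it gave 2660 (1365 higher, 1295 lower). The labels do not say that a number marks 1 animal. Deviations of same-numbered libraries correlated above 0.1 in 5 of 20 pairs and best with their own number in 9 of 20. No rich number was among either, so the pairing is only of numbers. The slope's 456 calls became 907 with DESeq2, 847 without the treatment covariate and 13 to 902 without 1 poor pull-down, also chosen after seeing the data. In the supernatants, the small difference in the share of the 50 most abundant genes ran from -1.38 to 0.293 percentage points without 1 sample number and was 0.486 with the rule at 5%, and that in Gm42418 ran from -0.295 to 0.341, with -0.0578 without ORX HFD 11. As the median over members of the ratio, the rich percent of the supernatant was 13.9 for neurons, 54.1 for oligodendrocyte precursors, 197 for fibroblasts, 92.6 for tanycytes and ependyma, 304 for choroid plexus, 7.44 for mitochondrially encoded and 20.4 for nuclear RNAs. With Gm42418 kept in the total it was 180 for fibroblasts, 212 for tanycytes and ependyma and 50.04 for ribosomal protein genes. Single genes turned sign where values lay near 0 or errors were wide. Gfap went to 0.11 with library totals, 0.0727 with the rule at 5%, 0.0236 as a slope, 0.12 on the second table and -0.0875 to 0.0776 without 1 rich library. Parp3 went to 0.11, 0.11, 0.0256, 0.11 and -0.124 to 0.0732 in the same order. Slc1a2 ran from -0.00126 to 0.198 and Ttr from -1.02 to 1.44 without 1 rich library, and Ttr was -0.17 with voom. Cpt1a went to 0.0756 with library totals and 0.0764 on the second table. The cause was not tested. Of all single-gene refits 2353 kept direction and side of the threshold, 118 lost the threshold, 16 gained it and 15 turned. The planned test on reads recovered from the second table was not run, because too few of its values came back whole.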
